A study of Homo sapiens with 18 samples.

Results

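Methylated regions near the ends of chromosomes 1 to 22 were taken from a table of regions enriched by capture of methylated DNA in K562 cells. A region belonged to the set if it started within the first 1 Mb of a chromosome, or ended within 1 Mb of the last listed region of that chromosome. The rule used position only, and it gave 5105 regions of the 198884 in the table, or of 191688 on chromosomes 1 to 22. The remaining 186583 regions of those chromosomes are called interior below. The set covered 39 ends, 17 left and 22 right, because the short arms of chromosomes 13, 14, 15, 21 and 22 had no listed region in their first 1 Mb. Left ends are written p and right ends q, with the chromosome number in front.

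Human chromosomes end in long arrays of the repeat TTAGGG, which the shelterin proteins cover. Inside the array lie subtelomeres, mosaics of segments that are shared between chromosome ends and carry pseudogenes and small gene families. DNA methyltransferases methylate cytosine followed by guanine (CpG), and subtelomeric DNA is usually heavily methylated in somatic cells. MeDIP-seq sequences fragments that an antibody against 5-methylcytosine has captured, so its signal depends on how many methylated CpG a fragment holds as well as on the share of cells that carry the mark.

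K562 is an established human erythroleukaemia line, and all cells here carried a B2M:tdTomato transgene (B2M is the gene for beta-2 microglobulin and tdTomato is a red fluorescent protein). The study compared cells silenced with TALE proteins, cells silenced with dCas9 and untreated cells, with 3 MeDIP and 3 RNA libraries in each group. Treated cells received 3 plasmids, each for a different factor abbreviated ATR in the labels, 1 of them D3A-based, and the dCas9 treatment included a plasmid for the sgRNA. The labels give neither the time after treatment nor separate cultures, so the p-values below measure the spread between libraries, which may be technical. Results of 4 contrasts are listed in a fixed order: TALE less untreated, dCas9 less untreated, TALE less dCas9, and the average of both silenced groups less untreated, called the silenced contrast.

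Levels are given as CPM, counts per 1000000 counts with library sizes scaled by edgeR's TMM factors. The library size was the sum over features that passed the filter on low counts, taken separately for regions, summed windows and genes. For TALE replicate 1 the scaled size was 2164880 for regions and 2447839 for windows. CPM of a summed end window and CPM of single regions are therefore on different scales. The listed regions held 2529729 to 4492751 counts per MeDIP library, and the RNA table held 8460076 to 12050554 per library. All 11 erythroid markers chosen for K562 were detected in all 9 RNA libraries. Of 10 markers chosen for T, B, epithelial and fibroblast cells, 5 passed the filter on low counts, with EPCAM at 105 and KRT8 at 153 CPM on average and CD3D at 22.7 CPM. Their part in the results was not tested. MeDIP libraries were pooled before capture, and libraries without capture were not analysed here, so copy number and methylation cannot be told apart from a count.

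The outermost members ran into the telomere repeat itself. A stretch of at least 3 TTAGGG or CCCTAA units in a row, searched on both strands, was present in 29 members, or 0.568% of them. It was present in 2 interior regions, or 0.00107%, and in none of the 4332 regions of the megabase next to the ends. The 29 members lay at 25 of the 39 ends and 25 of them lay within 100 kb of the end. A peak was called over 24 of the 29 in all 9 libraries. Their mean level ran from 0.60 to 172 CPM with a median of 12.7, against a median of 4.93 over all members.

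The member at the last listed position of 4q, chr4:191043522-191044276, is 755 bp long and held 70 units of the hexamer. It lies outside annotated genes and contains only 10 CpG. Its level was 177, 187 and 182 CPM in the TALE libraries, 185, 163 and 153 CPM in the dCas9 libraries, and 174, 146 and 179 CPM in the untreated libraries. The 3 groups overlapped. The first member of 1p, chr1:10003-15261, spans exons of the pseudogenes DDX11L1 and WASH7P and held 68 units in 5259 bp. Its level was 151, 159 and 137 CPM with TALE, 113, 149 and 127 CPM with dCas9, and 144, 151 and 141 CPM untreated, again with overlapping groups.

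At 12p the array lies inside chr12:95033-95762, beyond the start of DDX11L8, and reached 118 CPM on average with 76 units. The last member of 1q, chr1:249239318-249240615, held 107 units at 92.9 CPM. The 2q member chr2:243152479-243153188 held 21 units at 55.5 CPM, and the last member of 15q, chr15:102515895-102521388, which spans WASH3P and DDX11L9, held 53 units at 57.3 CPM. The number of units did not set the order: 300 units in the first member of 5p, chr5:10003-11986, came with 30.7 CPM. Summed over the 29 members, the level was 978 ± 22.4 CPM with TALE, 945 ± 28 CPM with dCas9 and 940 ± 26.3 CPM untreated (SD, n = 3 each). No contrast passed an exact two-sided permutation test (TALE against untreated p = 0.2, adjusted p = 0.4 over 4 contrasts, with 0.1 the smallest p that 3 against 3 can give).

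Peaks were denser at the ends than in the interior in each of the 9 libraries. Each library's own peaks numbered 67.8 to 82.1 per Mb of known sequence in the outer 1 Mb, against 31.3 to 42.9 per Mb in the interior. The mean ratio was 2.01, with a range of 1.91 to 2.16 over libraries (exact two-sided sign-flip test, n = 9, p = 0.00391, adjusted p = 0.00391 over 4 such tests). With 9 libraries this is the smallest p that the test can give, and it holds for all 4 tests of this kind. The megabase next to the ends lay between, at 54.0 to 68.2 peaks per Mb. The ends exceeded that neighbour by 1.22 times (range 1.20 to 1.26, exact sign-flip p = 0.00391).

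The direction of the first comparison turned when peaks were counted per CpG rather than per base. The reference holds 21.1 CpG per kb in the outer 1 Mb and 9.81 per kb in the interior. Per 1000 CpG, the libraries had 3.52 ± 0.267 peaks at the ends and 3.76 ± 0.431 in the interior (SD, n = 9), a ratio of 0.938, lower at the ends in 8 of 9 libraries (exact sign-flip p = 0.00781). The exception was TALE replicate 1. Against the next megabase, which holds 22.04 CpG per kb, the ends stayed higher per CpG, by 0.36 on the log2 scale.

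**Figure D1:**
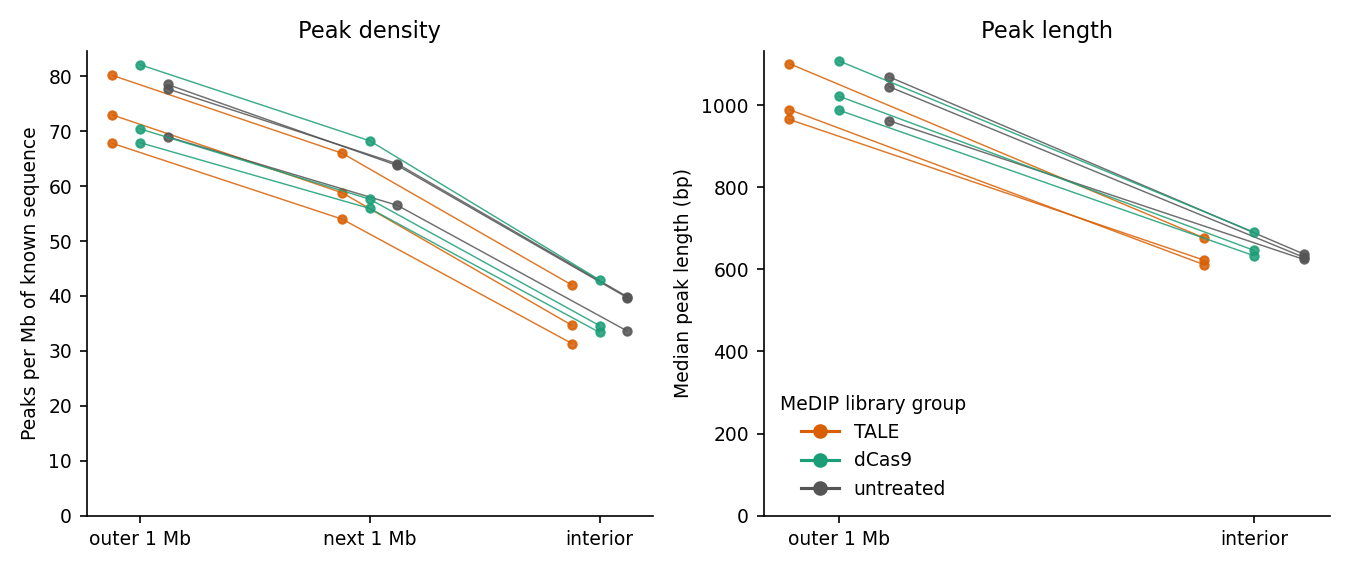
Peaks per Mb of known sequence (left) and median peak length in bp (right) of the 9 MeDIP libraries, each from its own peak list, with 1 line per library and the group in colour. All 9 lines fall from the outer 1 Mb to the interior, from 67.8 to 82.1 down to 31.3 to 42.9 peaks per Mb.

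Peaks were also longer at the ends. The median peak length was 962 to 1108 bp at the ends and 611 to 690 bp in the interior, a ratio of 1.60 (range 1.54 to 1.68, exact sign-flip test, n = 9, p = 0.00391). The listed regions did not show this at their median, which was 288 bp at the ends and 287 bp in the interior. On chromosomes 1 to 22, each of the 191688 regions had the coordinates of the stretch shared by all peaks that overlap it, so a region is no longer than any peak behind it. The upper quartile did differ, at 468 bp against 345 bp, and 621 members (12.2%) were at least 1 kb long against 8.22% of interior regions. In the next megabase the upper quartile was 491 bp, and 11.75% of regions were at least 1 kb long. The longest member, chr15:102292885-102304569 at 15q, spans 11685 bp over the pseudogene DNM1P47, with 752 CpG and 90.3 CPM. The next, chr11:134019043-134028271 at 11q, spans 9229 bp across exons of JAM3, a junctional adhesion molecule, and NCAPD3, a condensin subunit, at 76.2 CPM.

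Per kb of listed region, the ends held 38.0 to 66.0 counts per library and the interior 31.5 to 56.0. The ratio was 1.20 (range 1.18 to 1.22, exact sign-flip test, n = 9, p = 0.00391). It fell to 0.12 on the log2 scale, from 0.26, when the windows were narrowed to 0.5 Mb. Peaks in all 9 libraries underlay 1590 members (31.2%) against 24.6% of interior regions, and a peak in a single library underlay 10.3% against 16%. In the next megabase these 2 shares were close to those of the ends, at 30.06% and 10.96%. Its median region had 18.84 CPM per kb, against 18.36 at the ends and 13.98 in the interior.

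The rise towards the ends was not even. Listed regions numbered 67.8 per Mb beyond 10 Mb from an end, 78.4 between 5 and 10 Mb, 96.6 between 2 and 5 Mb and 113 between 1 and 2 Mb. They reached 135 per Mb between 0.5 and 1 Mb and 156 between 0.25 and 0.5 Mb, then fell to 111 between 100 and 250 kb and 121 between 20 and 100 kb. In the outermost 20 kb, which hold 99 members in 0.54 Mb of known sequence, the density was 183 per Mb. Right ends were measured from the last listed region, so each of the 22 has at least 1 region in this bin by construction. That can raise the density of this bin, by an amount that was not tested. Per 1000 CpG the profile took another shape: 7.51 regions beyond 10 Mb, a low of 5.11 between 1 and 2 Mb, and 11.6 in the outermost 20 kb. The last value has the same limit.

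**Figure D2:**
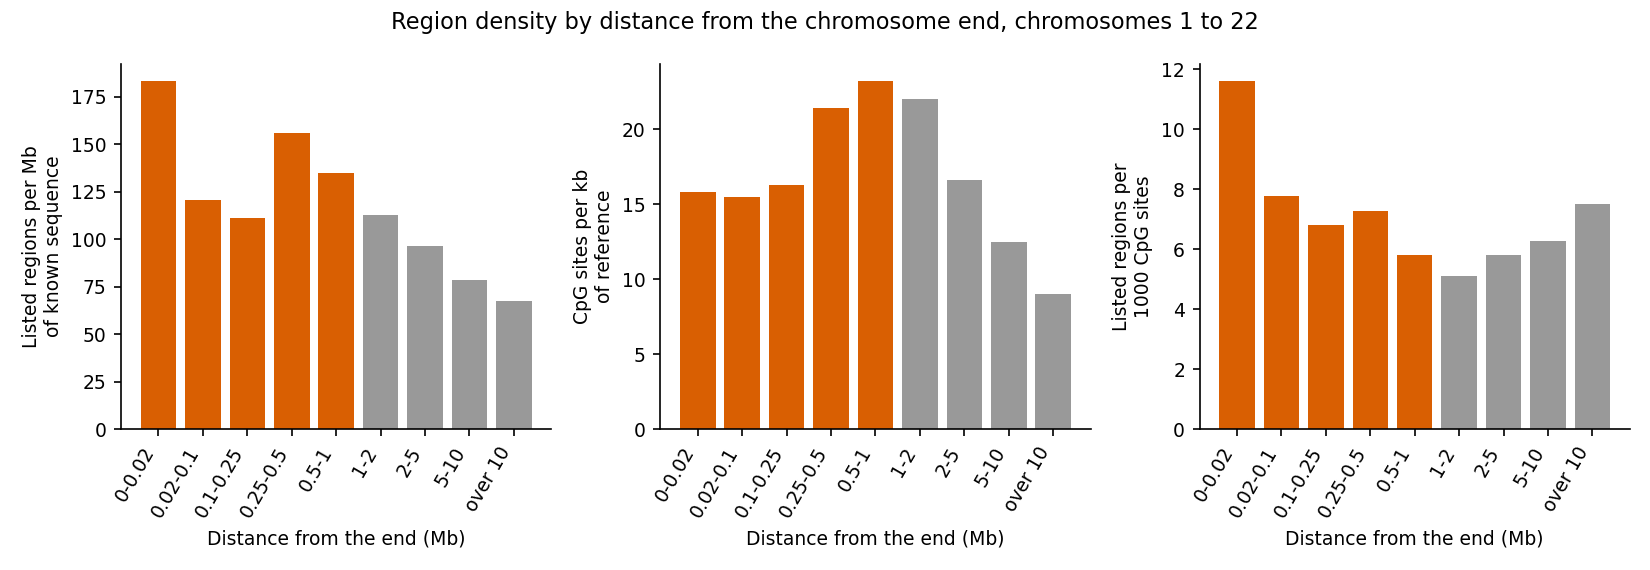
Listed regions per Mb of known sequence (left), CpG sites per kb of reference (middle) and listed regions per 1000 CpG (right), by distance from the end in Mb, with the outer 1 Mb in orange. Region density per Mb has high points at 0.25 to 0.5 Mb (156) and in the outermost 20 kb (183), while density per CpG is lowest at 1 to 2 Mb (5.11). Right ends are measured from the last listed region, which can raise the outermost bin.

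The members themselves had slightly more CpG than interior regions, with medians of 31.3 and 27.97 per kb, and GC contents of 53.1% and 51.3%. Regions of the next megabase were above the ends in both, at 32.9 per kb and 53.6%. Among members, the median level rose from 12.04 CPM per kb in the poorest of 4 classes of CpG density to 17.1, 20.6 and 23.6 CPM per kb in the richer classes. Across members, CpG density and level had a Spearman correlation of 0.292, a description over regions that share the same libraries. By GENCODE annotation 58.9% of members lay in introns, 21.7% touched exons, 17.4% were intergenic and 1.98% lay within 1 kb of the start of a coding gene. The interior had fewer in exons (14.2%) and more in introns (64.0%). The next megabase was close to the ends, with 21.0% in exons and 59.6% in introns.

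Several of the strongest members had few CpG, and others were repeats whose unit carries CpG. The sequence below, the 300 bases richest in CpG of a 3q member, is shown because this member had the highest level per kb among those of at least 500 bp outside the telomere arrays. It is on the forward strand of GRCh37 (the sequence of hg19), and capitals mark CpG.

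3q, chr3:197186605-197186904: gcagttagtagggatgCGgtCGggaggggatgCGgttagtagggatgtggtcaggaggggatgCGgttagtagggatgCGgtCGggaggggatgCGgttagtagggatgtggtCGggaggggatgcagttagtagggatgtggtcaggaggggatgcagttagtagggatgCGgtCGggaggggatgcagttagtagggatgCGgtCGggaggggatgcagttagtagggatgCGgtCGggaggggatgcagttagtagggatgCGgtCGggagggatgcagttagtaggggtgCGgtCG

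The highest level of all members was at chr7:158387662-158387979 in 7q, which lies outside annotated genes and holds only 2 CpG in 318 bp. It had 226, 247 and 239 CPM in the TALE libraries, 239, 251 and 214 CPM in the dCas9 libraries, and 191, 224 and 220 CPM untreated. The second was chr1:248567245-248567549 in 1q, with 3 CpG in 305 bp, inside OR2T1, an olfactory receptor gene, within 1 kb of an annotated start. It had 237, 208 and 244 CPM with TALE, 206, 221 and 212 CPM with dCas9, and 193, 208 and 233 CPM untreated. At the 7q region the TALE libraries lay above the untreated ones while dCas9 overlapped both, and the edgeR adjusted p for TALE less untreated was 0.9997. At the 1q region the 3 groups overlapped. The 2 regions had 717 and 714 CPM per kb against a median of 18.4 CPM per kb over members.

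The other leading members were long. A 6673 bp region of 5p, chr5:645106-651778, over an exon of CEP72, a centrosome protein, held 183 CpG at 209 CPM. A 22q region of 3513 bp, chr22:50775577-50779089, lies outside annotated genes, with 34 CpG at 199 CPM. A 9080 bp region of 3q, chr3:197363677-197372756, held 201 CpG at 181 CPM. The 3q minisatellite printed above belongs to chr3:197186256-197187021, in an annotated intron, at 112 CPM per kb. Over the 9 libraries these 4 spanned 191 to 229, 185 to 211, 168 to 199 and 71.1 to 98.6 CPM.

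At the border of the set, the member nearest inside was chr7:999881-1000470, in an intron of COX19, with 5.10 CPM and a peak in 1 library. The region nearest outside was chr16:89290668-89291035, in an intron of ZNF778, with 16.5 CPM and peaks in all 9 libraries.

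The ends differed widely among themselves. Density was highest at 16q (227 regions per Mb), 17q (226) and 11p (213), and lowest at 3p (2.13), 14q (19.0) and 2p (32.3). At 3p only 2 regions were listed, each with a peak in 1 library, and they held 0 to 12 counts per library. The 14q end is taken up by immunoglobulin heavy chain gene segments, with 187 annotated genes and 19 listed regions. Per 1000 CpG, 3p held 0.31 regions and 16q 8.42.

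The mean level per region gave another order. It was highest at 5p (17.7 CPM), 7q (14.6) and 21q (12.7), and lowest at 3p (0.48), 14q (2) and 9p (3.59). The 1q end combined 42 regions with 11.3 CPM per region, while its median region had 2.83 CPM. At 16p, the gene-rich end with the alpha-globin cluster, 190 regions averaged 11.3 CPM.

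The alpha-globin cluster, whose genes HBZ, HBM, HBA2, HBA1 and HBQ1 code for embryonic and adult alpha-like chains, spans chr16:192727-231178 and held 9 members. The highest, chr16:221346-221770, between genes, had 17.6, 17.7 and 11.5 CPM with TALE, 17.0, 17.4 and 15.97 CPM with dCas9, and 17.5, 12.7 and 19.0 CPM untreated. The most CpG-rich, chr16:215562-216878, overlaps exons of HBM and held 109 CpG. It had peaks in only 2 libraries and 10.6, 8.64 and 8.79 CPM with TALE, 11.5, 10.4 and 9.93 CPM with dCas9, and 13.8, 11.03 and 12.8 CPM untreated. The TALE libraries lay below the untreated ones, a comparison picked out after its values were seen (edgeR unadjusted p = 0.124). A member between genes, chr16:228986-229298, also picked afterwards, had 3.02 to 6.49 CPM with dCas9 and 6.54 to 12.7 CPM untreated (edgeR unadjusted p = 0.0163). It had peaks in 2 libraries, and its TALE libraries overlapped the untreated ones. No member passed the edgeR test described below.

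The D4Z4 array at 4q and 10q, whose units each contain a copy of DUX4, a transcription factor gene silenced in most somatic cells, gave peaks but almost no counts. Of 12 members over DUX4 or its copies, 3 at 4q and 9 at 10q, 11 had 0 counts in all 9 libraries. The exception was a 10 bp region with 0.23 CPM and peaks in 5 libraries. Some other segments with many repeated words also had peaks and 0 counts. The 2 sequences below come from such members. The first is from a D4Z4 unit, in a member with a peak in only 1 library. The second is from the longest of the empty members with peaks in all 9 libraries (chr5:180756544-180759852, over the pseudogene CICP15, chosen after its values were seen). Capitals mark CpG.

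10q, DUX4L10, chr10:135480732-135481025: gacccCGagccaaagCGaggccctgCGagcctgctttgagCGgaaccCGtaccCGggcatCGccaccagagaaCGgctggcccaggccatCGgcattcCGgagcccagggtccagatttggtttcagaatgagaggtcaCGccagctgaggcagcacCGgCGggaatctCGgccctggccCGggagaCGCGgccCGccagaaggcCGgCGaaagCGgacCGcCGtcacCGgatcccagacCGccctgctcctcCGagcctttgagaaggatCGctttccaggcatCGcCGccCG
5q, CICP15, chr5:180757988-180758287: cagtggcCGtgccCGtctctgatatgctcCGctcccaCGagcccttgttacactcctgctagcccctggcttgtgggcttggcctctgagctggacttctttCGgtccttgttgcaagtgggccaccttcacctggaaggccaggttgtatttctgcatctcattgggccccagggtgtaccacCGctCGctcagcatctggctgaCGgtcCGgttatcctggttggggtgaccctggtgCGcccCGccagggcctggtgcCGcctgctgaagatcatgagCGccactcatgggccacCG

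In all, 171 members (3.35%) had 0 counts in every library against 1.10% of interior regions and 0.323% of the next megabase. Each had a peak in at least 1 library, and 39 had a peak in all 9. Of the 171, 98.2% lay in regions where over 90% of the 31-base words occur more than once in the genome. That class held 716 members, of which 23.5% were empty, and 20049 interior regions, of which 9.94% were empty. Among the 4301 members with a lower share of repeated words, 1 was empty. The share of members in the repeated class was 55.1% in the outermost 20 kb, 56.5% between 20 and 100 kb, 24.4% between 100 and 250 kb and 7.97% between 0.5 and 1 Mb. Empty members went from 18.2% and 19.0% in the 2 outermost bins to 0.696% in the innermost. The rule by which reads with several matches were counted is not given in the sources used here, and its part in these counts was not tested.

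Small gene families that populate subtelomeres had members at their starts in some cases only. Of 84 annotated genes of the 13 families listed for this purpose, 41 had a member within 2 kb of the start. Of the 54 members at these starts, 22 had 0 counts in all 9 libraries. These included 12 of 13 at starts of DUX4 genes and 2 of 7 at starts of WASH genes. DDX11L pseudogenes had 8 such members with a median of 9.54 CPM and a highest of 141 CPM. WASH genes had 7 with a median of 3.68 CPM, led by chr15:102506308-102510225 in WASH3P at 13.8 CPM and chr15:102504049-102504540 at 12.9 CPM. TUBB8 genes, of the beta-tubulin family, had 5 with a median of 2.09 CPM. The 17 OR4F olfactory receptor genes and the 6 beta-defensin (DEFB) genes had 0. At 9p, chr9:10147-10893, beyond DDX11L5, had 14.9 CPM.

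The share of counts in the set was compared between the groups. Members held 3.83% ± 0.0417 of autosomal counts with TALE, 3.77% ± 0.0409 with dCas9 and 3.79% ± 0.00821 untreated (SD, n = 3 each). The libraries were at 3.83, 3.87 and 3.79% with TALE, 3.82, 3.75 and 3.74% with dCas9, and 3.79, 3.78 and 3.801% untreated. The groups overlapped. Exact two-sided permutation tests gave p = 0.3, 0.4, 0.2 and 0.833 in the 4 contrasts. After adjustment over these, p was 0.533, 0.533, 0.533 and 0.833, and the smallest p possible is 0.1, or 0.0238 for 6 against 3.

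Single members were tested with edgeR's quasi-likelihood test, fitted over all regions. Of the 5105 members, 3472 passed the filter on low counts, and 0 were called in each of the 4 contrasts at a Benjamini-Hochberg adjusted p under 0.05. Over all 105652 regions tested, the shares called were 0%, 0.000947%, 0.000947% and 0%. At an unadjusted p under 0.05, edgeR gave 164, 142, 155 and 155 members in the same order, or 4.72, 4.09, 4.46 and 4.46%, beside 4.74, 4.69, 4.47 and 4.88% of all regions. DESeq2 called 0 members too, with 77, 77, 82 and 76 at an unadjusted p under 0.05, beside 2661, 2618, 2503 and 2728 of all regions. The median log2 fold change of members was 0.01, -0.01, 0.02 and -0.0013, beside -0.00088, 0.00063, -0.0019 and -0.0073 for all regions tested.

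The members with the smallest p in each contrast are described next, and none of them was called. One of them, in an intron of MPG, a DNA glycosylase gene of 16p, is a minisatellite whose unit carries CpG, printed here with those CpG in capitals.

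16p, MPG intron, chr16:131958-132257: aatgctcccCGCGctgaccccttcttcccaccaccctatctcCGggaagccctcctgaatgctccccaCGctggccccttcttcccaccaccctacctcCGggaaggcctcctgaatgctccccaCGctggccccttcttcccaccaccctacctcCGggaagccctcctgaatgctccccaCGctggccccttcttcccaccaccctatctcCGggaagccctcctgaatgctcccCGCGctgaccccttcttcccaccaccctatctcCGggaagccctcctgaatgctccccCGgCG

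This member, chr16:131918-132270, had 9.70, 12.6 and 17.6 CPM with TALE, 10.7, 14.0 and 9.50 CPM with dCas9, and 7.99, 3.82 and 6.23 CPM untreated. All silenced libraries lay above all untreated ones, with a log2 fold change of 1.02 (SE 0.28) and an edgeR adjusted p of 0.897. Among the 13 alternatives run, its adjusted p was 0.838 to 1. In an intron of GLOD4 at 17p, chr17:683115-683396 had 2.31, 4.32 and 4.40 CPM with TALE against 12.9, 7.22 and 9.03 CPM untreated. The groups did not overlap, with a log2 fold change of -1.37 and an SE of 0.36 at an edgeR adjusted p of 0.773. In an intron of ESYT2 at 7q, chr7:158552915-158553145 had 5.93 to 12.5 CPM in the silenced libraries and 4.30 to 5.09 CPM untreated (edgeR adjusted p = 0.944).

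For dCas9 against untreated the smallest p values were in ANKRD11, a chromatin regulator gene, and PCGF3, a Polycomb group gene. The ANKRD11 intron region chr16:89546424-89546701 had 8.30, 9.61 and 11.2 CPM with dCas9 and 4.92, 0.85 and 4.36 CPM untreated. The PCGF3 exon region chr4:737321-737616 had 8.30, 2.34 and 2.16 CPM with dCas9 and 10.8, 8.06 and 11.8 CPM untreated, so 1 dCas9 library overlapped the untreated range. Both had an edgeR adjusted p of 0.909. For TALE against dCas9, chr2:242910797-242912497, in the noncoding gene LINC01237, had 36.95, 35.3 and 32.1 CPM with TALE and 20.9, 23.6 and 20.3 CPM with dCas9. The TCF25 intron region chr16:89941986-89943318 had 14.8, 43.2 and 20.6 CPM with TALE and 12.3, 16.6 and 11.7 CPM with dCas9. There the groups overlapped, and the highest value came from TALE replicate 2. The log2 fold change of this region was 0.92, and it ran from 0.39 to 1.17 over the 13 alternatives. Both the LINC01237 and the TCF25 region had an edgeR adjusted p of 0.9997.

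Summing the counts of each end gave a finer test, with 38 of the 39 ends passing the filter (all but 3p). In edgeR, 1 end was called, 7q, which was higher with TALE than untreated, while 1.02% of all 2362 windows of the genome were called in that contrast and 0.593% were called higher. In the other contrasts 0 ends were called, while the shares of all windows called were 2.03%, 0% and 2.58%. At an unadjusted p under 0.05, edgeR gave 4, 2, 4 and 5 ends in the 4 contrasts, or 10.5, 5.26, 10.5 and 13.2%, beside 9.48, 11.8, 4.61 and 12.2% of all windows. DESeq2 gave 2, 1, 2 and 2 ends, beside 159, 206, 67 and 218 of the 2362 windows, with 0 ends called. For TALE against untreated they ran from -0.06 at 13q to 0.19 at 14q on the log2 scale, with a median SE of 0.03. For dCas9 against untreated they ran from -0.08 at 1p to 0.12 at 2p.

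The 7q end had 1601, 1708 and 1626 CPM with TALE, 1575, 1647 and 1547 CPM with dCas9, and 1540, 1592 and 1499 CPM untreated. TALE exceeded untreated in all libraries, by 1.07 times (log2 fold change 0.09, SE 0.03, edgeR adjusted p = 0.0495). The call was lost with DESeq2 and when any 1 of the TALE or untreated libraries was left out, and over the 13 alternatives the adjusted p ran from 0.0261 to 0.493. Of the 108 tested members that make up this sum, 64 had a positive fold change, which restates the call and adds no support, where 49.9% of all regions did. The highest member of the set, chr7:158387662-158387979, gave 489, 629 and 871 of the 3918, 4905 and 6748 counts with TALE. Untreated, it gave 621, 527 and 706 of 5690, 4275 and 5489. Its log2 fold change for TALE less untreated was 0.17, and the end without this member was not tested. Of the 145 windows of chromosome 7, 5 were called higher and 0 lower with TALE, with 88 positive and a median log2 fold change of 0.03, and 14 were called higher and 1 lower with dCas9. Whether the number of copies of chromosome 7 differed between the groups was not tested.

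At 16p the level was 1885, 1946 and 1916 CPM with TALE, 1869, 1792 and 1861 CPM with dCas9, and 1944, 1915 and 1945 CPM untreated. All dCas9 libraries lay below the untreated ones, with a log2 fold change of -0.07 (SE 0.02) and an edgeR adjusted p of 0.074, which misses the threshold. At 4q the level was 222 to 243 CPM with dCas9, 232 to 258 CPM with TALE and 230 to 252 CPM untreated.

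**Figure D3:**
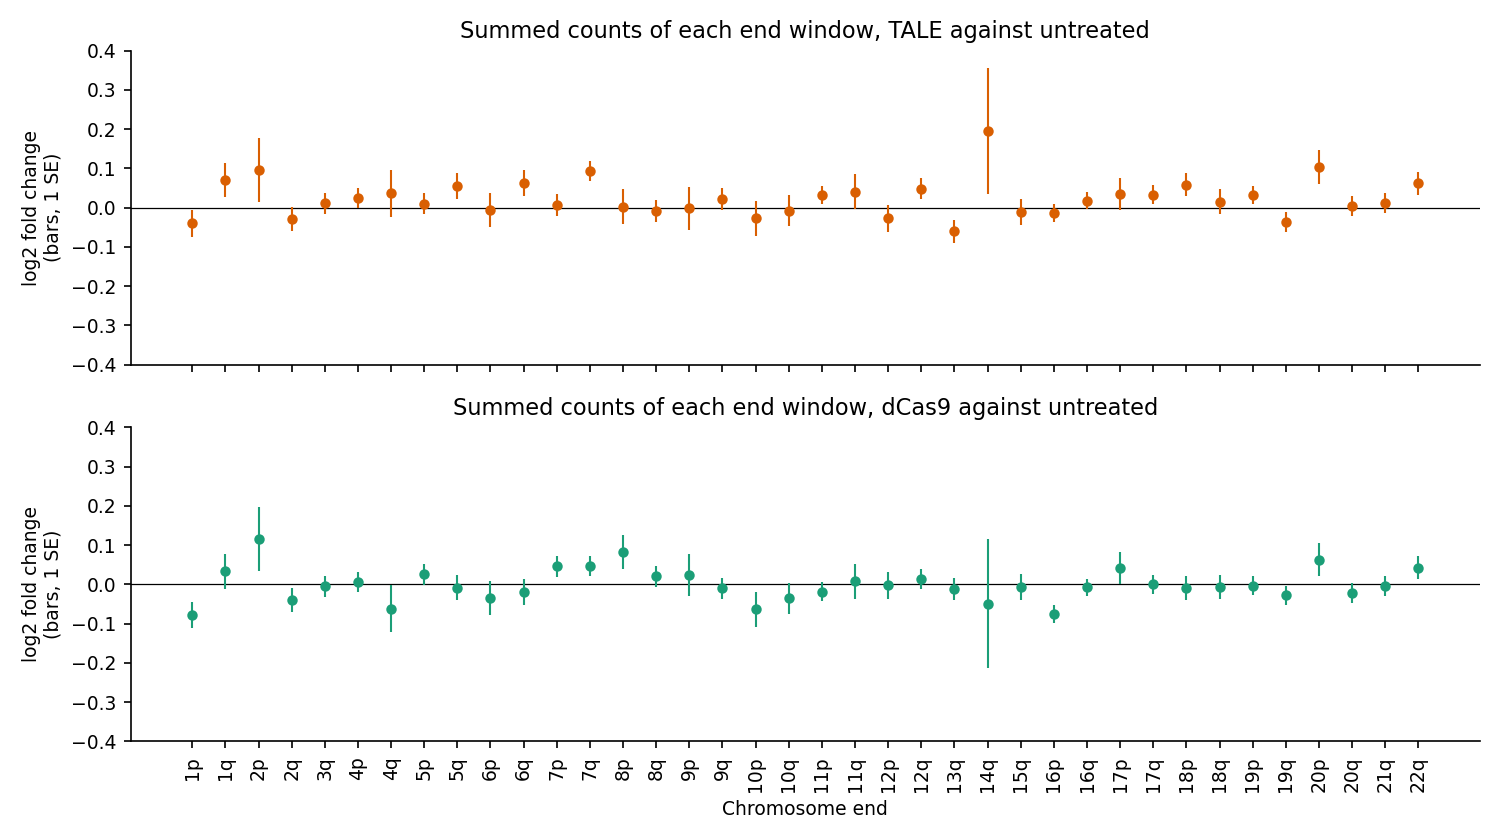
Log2 fold change of the summed counts of 38 chromosome ends, TALE against untreated (top) and dCas9 against untreated (bottom), with bars of 1 SE. Values lie between -0.08 and 0.19, and the call at 7q is at 0.09 in the top panel.

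The RNA libraries covered the same ends. Of 1081 genes of the RNA table that matched GENCODE and lay wholly in an end window, 423 passed the filter and 299 had 0 counts in all 9 libraries. In edgeR, 0 of the 423 were called in each contrast. Over all 13786 genes, the shares called were 0.0218%, 0.029%, 0% and 0.0363%. At an unadjusted p under 0.05, edgeR gave 22, 24, 26 and 23 end genes, or 5.2, 5.67, 6.15 and 5.44%, beside 7.15, 5.93, 6.38 and 6.35% of all genes. DESeq2 gave 20, 19, 22 and 17 end genes, beside 820, 669, 707 and 725 of all genes. DESeq2 called 0, 1, 0 and 0, the 1 being PALM. Because the use of strand is not given in the sources used here, reads of overlapping or antisense genes cannot be told apart.

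End genes with many reads included housekeeping genes and HBZ. GNB2L1 at 5q, which codes for the ribosomal scaffold RACK1, had 1839 to 2343 CPM with a median of 2056. The ribosomal protein genes RPLP2, RPL8 and RPL13 averaged 1156, 991 and 573 CPM. PTBP1, a splicing regulator, PSMB1, a proteasome subunit, and TALDO1, an enzyme of the pentose phosphate pathway, averaged 492, 476 and 387 CPM. Per kb of exon, RPLP2 stood at 706 CPM per kb and HBZ at 484.

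HBZ, which codes for the embryonic zeta chain, had 548, 595 and 730 CPM with TALE, 711, 418 and 639 CPM with dCas9, and 503, 456 and 453 CPM untreated. HBA1 had 236, 257 and 352 CPM with TALE, 330, 455 and 354 CPM with dCas9, and 204, 272 and 250 CPM untreated. The dCas9 libraries lay above the untreated ones for HBA1, with a log2 fold change of 0.65 (SE 0.17) and an edgeR adjusted p of 0.262. HBA1 and HBA2 are nearly identical, and the split of reads between them is uncertain. HBA2 averaged 22.6 CPM, HBQ1 28.4 CPM, and HBM, at 0.30 CPM, did not pass the filter.

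Other end genes with the smallest p were PALM at 19p, which codes for a membrane-bound phosphoprotein, and MIR210HG at 11p, the host transcript of a hypoxia-related microRNA. PALM had 11.2, 13.2 and 15.7 CPM with dCas9 and 7.42, 6.92 and 6.90 CPM untreated (log2 fold change 0.91, SE 0.21, edgeR adjusted p = 0.208). MIR210HG had 0.59, 1.39 and 2.32 CPM with TALE, 4.08, 4.25 and 3.97 CPM with dCas9, and 2.97, 3.58 and 4.84 CPM untreated. TALE lay below both other groups, with an edgeR adjusted p of 0.362 against untreated and 0.511 against dCas9. FAM157C at 16q had 1.47, 1.46 and 1.39 CPM with TALE, 1.48, 1.86 and 1.69 CPM with dCas9, and 2.27, 3.09 and 4.48 CPM untreated (edgeR adjusted p = 0.289 for silenced against untreated). MTG1 at 10q, a mitochondrial GTPase gene, averaged 0.81, 1.02 and 1.91 CPM in the same order. MTND2P28 at 1p, a nuclear copy of a mitochondrial gene, whose reads may come from mitochondria, ran from 5.01 to 25.4 CPM.

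RNA was also read against members at gene starts. Of 606 coding genes in the end windows, 87 had a listed region within 1 kb of the start, and 63.2% of these passed the RNA filter, beside 64.2% of the 519 others. Their median RNA levels were 4.17 and 6.37 CPM. In the interior, 64.6% of 3665 genes with a region at the start passed, beside 55% of 14059 others, with medians of 6.36 and 2.62 CPM. These values are a description with no test. Of 66 genes of the subtelomeric families in the RNA table, 7 passed the filter. FRG1 at 4q, a gene near D4Z4, averaged 145 CPM, ZMYND11 at 10p, a histone reader, 19.3 CPM, WASH3P 10.5 CPM, RPL23AP53 at 8p 7.17 CPM and WASH7P 5.06 CPM. DUX4 at 4q was listed at 0 in all 9 RNA libraries. Its reads can be shared with the copies in D4Z4, and the rule for counting such reads is not given. The 0 therefore does not show that DUX4 was silent. WASH7P had 3.61, 2.80 and 3.47 CPM with dCas9 and 6.55, 4.94 and 6.05 CPM untreated, with an edgeR adjusted p of 0.385, and its reads can be shared with other WASH copies.

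Among 24 genes for telomere proteins, telomerase and DNA methylation in the RNA table, 22 passed the filter and 0 were called in the 4 contrasts, with 1, 1, 2 and 1 at an unadjusted p under 0.05 in edgeR, where all genes gave 7.15, 5.93, 6.38 and 6.35%. The median log2 fold changes were 0.10, 0.05, 0.06 and 0.09, beside 0.0024, -0.0031, 0.0017 and 0.00048 over all genes, and the lowest edgeR adjusted p was 0.585. TERF1 and TERF2, which bind the TTAGGG array, averaged 64.6 and 44.1 CPM, and POT1, which binds its single-stranded tail, 92.2 CPM. TERT, the catalytic subunit of telomerase, averaged 0.87 CPM and its RNA template TERC 30.8 CPM. The maintenance methyltransferase gene DNMT1 averaged 274 CPM and the de novo methyltransferase genes DNMT3B and DNMT3A 81.6 and 17.5 CPM, while DNMT3L did not pass the filter. RTEL1, a helicase gene that lies in the 20q end itself, had 1.33 to 3.14 CPM.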

How the data were processed

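The authors deposited a table of raw counts per region for 9 MeDIP libraries, a table of raw counts per gene symbol for 9 RNA libraries, and a list of broad peaks for each MeDIP library, called per sample. Each deposited peak carries the authors' score, fold enrichment, −log10 p and −log10 q, which served here for description and for 1 stricter filter. The submitters' processing notes name the build hg19 and the tools BWA 0.7.5, Picard, MACS2 and bedtools for MeDIP and STAR 2.3.0 for RNA. The control used for peaks, the counter and its rule for reads that match several places are not given in the sources used here.

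Members were found by position. The members, gene lists and tests were chosen with earlier results of these data known. Counts were tested with edgeR 4.0.16 (R 4.3.3) by the quasi-likelihood test with TMM factors and filterByExpr at a minimum of 10 counts, in 1 model over all 9 libraries of an assay. Windows of 1 Mb were summed from regions. CPM values use TMM-scaled library sizes of the features that passed the filter, separately for regions, windows and genes. DESeq2 1.42.0 was an alternative. The code for the edgeR fits was tested on simulated data. Peaks were assigned by midpoint, and densities leave out N bases of GRCh37. A 31-base word counts as repeated if it occurs more than once in GRCh37. Annotation was GENCODE on GRCh37, where 62.9% of RNA symbols and 88% of tested genes had a position, 1889 by older symbols. Table columns and groups were assigned through the sample titles and descriptions.

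Regions and genes were named by a written rule: the 2 smallest p per contrast where none was called, the highest and longest members, the ends with extreme density or level, and list members, up to 6 of a kind. Alternatives were other size factors, DESeq2, no filter, a replicate block, other windows and borders, stricter peaks, CpG as the denominator and leaving out each library. Some genes and sequences that the rule names are not reported here.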

Additional observations from a re-analysis of the deposited data

How the results depend on the processing

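Among results that passed their test, the peak density ratio of ends to interior reversed: per 1000 CpG sites it was -0.092 on the log2 scale, against 1.01 per Mb. Under its other alternatives it stayed between 0.88 and 1.18. The ratios to the next megabase (0.15 to 0.74 on the log2 scale), of peak length (0.59 to 0.71) and of counts per kb (0.12 to 0.32) kept direction and call. Leaving out each library gave 1.00 to 1.02, 0.287 to 0.295, 0.67 to 0.69 and 0.25 to 0.26 for these 4 results.

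The share of counts in end regions passed the threshold in no contrast under any alternative run, and its silenced contrast, at 0.00684 percentage points, turned to -0.00694 without TALE replicate 2. No member region was called under any alternative. The count of called ends for TALE against untreated was 0 with DESeq2 and 0 to 1 when each library was left out, and for silenced against untreated it was 0 to 1, with 7q called without dCas9 replicate 3.

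For end genes, DESeq2 called 1 for dCas9 against untreated (PALM). Without the filter on low counts, edgeR called 1 (MIR210HG), 4 (MTND1P23, MTND2P28, HBA1, PALM), 5 (AL627309.1, MTND1P23, MTND2P28, MTATP6P1, MIR210HG) and 1 (DNM1P47) in the 4 contrasts; those named MT are copies of mitochondrial genes. For TALE against dCas9, leaving out each library gave 0 to 3, with 3 called without dCas9 replicate 1 (AL627309.1, MTND2P28, MTATP6P1).

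Libraries of the same replicate number did not deviate together: the correlations of 9 same-numbered pairs were -0.00475 to 0.00399 over regions, -0.12 to 0.08 over windows and -0.28 to 0.10 over genes, so the numbers were not taken as pairs. With a replicate block, 0 member regions, 1 end (7q, TALE against untreated) and 0 end genes were called, and the differences in share of counts were 0.0352, -0.0215, 0.0568 and 0.00684 percentage points with exact sign-flip p of 0.5, 0.5, 0.25 and 1, where 0.25 is the smallest p that 3 pairs can give, so this test could not pass.

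Depth limits single members: 1633 of 5105 did not pass the filter, and levels of repeated segments rest on counting rules not given in the sources used here.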
